A study of Mus musculus with 15 samples.

Results

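The circadian clock genes Arntl (also named Bmal1), Clock, Per1, Per2, Per3, Cry1, Cry2, Nr1d1, Nr1d2 and Dbp were followed in mouse retinal pigment epithelium (RPE), the pigmented layer behind the photoreceptors. They were chosen by symbol and not by a rule on measured values, though with earlier results of these data known. All 10 were found among the 46078 genes of the count table. RNA sequencing covered 15 libraries of isolated RPE from female mice at postnatal day 14, with extraction starting 2 hours after light onset. Mertk KO and Mertk WT had 4 libraries each, Bai1 Tg pos had 3 and Bai1 Tg neg had 4. Mertk is the receptor tyrosine kinase through which the RPE takes up shed photoreceptor outer segments, and Bai1 (gene symbol Adgrb1) is a receptor of the adhesion class that recognises phosphatidylserine. Both Bai1 groups carry wild-type Mertk, Tg pos and Tg neg being with and without a Bai1 transgene, whose promoter the sources used here do not name. All 15 libraries share a strain label naming a mixture of C57BL/6J and B6;129-Mertktm1Grl/J, the line with the Mertk knockout allele. The clock was sampled at 1 time of day only, so levels can be compared between genotypes but no rhythm, phase or amplitude was measured.

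As background, the clock is a transcriptional loop that runs in most cells. Arntl and Clock form a heterodimer that binds E-box elements and activates the Per and Cry genes, whose proteins return to the nucleus and inhibit that heterodimer. In an interlocked loop, Nr1d1 and Nr1d2 (REV-ERB alpha and beta) repress Arntl through RORE elements, where ROR proteins activate it, and Dbp is an output factor that binds D-box elements. In the RPE, phagocytosis of outer segments peaks soon after light onset and is under circadian control.

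The elements that tie the members together were looked for in RefSeq promoter windows of GRCm38.p6, each from 250 bases before to 50 bases after a transcript start, on both strands. Windows were found for 9 of the 10 members, 13 windows in all, and not for Per2. The E-box CACGTG was in windows of Per1 and Cry1 and in 7.15% of all 32851 windows. The D-box, searched as TTATGTAA or TTACGTAA, was found at 2 places in the Per3 window and in 1.06% of all windows. The RORE core TAGGTCA was in 1 of the Arntl windows and in 2.61% of all windows. The full cAMP response element TGACGTCA was in no member's window and in 1.79% of all windows, while its shorter core TGACG, which the full element contains, was in windows of Per1, Cry1 and Cry2 and in 20.8% of all windows. A match describes letters only and is not a bound site. Per1 and Cry1 also varied together between libraries, as did Per1 and Nr1d1, whose window held no E-box. Both results sat on the threshold of their test, and neither pair passed under the other settings (below). A link between a motif and co-variation was not tested. The Per1 and Cry1 stretches are shown for their E-box and the Arntl stretch for its RORE core. The Per3 stretch is shown because it holds the D-box more than once. Each reads 5′ to 3′ on the strand of its gene, with the named motif in capitals. The Per1 stretch is chr11:69098699-69098948 on the plus strand, with the E-box starting 166 bases before the start. The Cry1 stretch is chr10:85185055-85185304 on the minus strand, with the E-box starting 60 bases before the start. The Per3 stretch is chr4:151044666-151044915 on the minus strand, with D-boxes starting 205 and 158 bases before the start. The Arntl stretch is chr7:113207529-113207558 on the plus strand, with the RORE core beginning at base 31 of the transcript.
Per1: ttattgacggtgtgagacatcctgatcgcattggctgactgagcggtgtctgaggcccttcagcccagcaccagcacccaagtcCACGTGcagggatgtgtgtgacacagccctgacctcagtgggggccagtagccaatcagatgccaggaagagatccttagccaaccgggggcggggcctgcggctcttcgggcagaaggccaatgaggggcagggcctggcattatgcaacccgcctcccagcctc
Cry1: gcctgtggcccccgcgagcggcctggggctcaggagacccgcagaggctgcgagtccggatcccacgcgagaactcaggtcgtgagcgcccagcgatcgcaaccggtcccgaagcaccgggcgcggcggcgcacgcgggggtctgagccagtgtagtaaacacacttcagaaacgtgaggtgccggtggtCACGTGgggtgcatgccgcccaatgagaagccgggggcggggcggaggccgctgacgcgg
Per3: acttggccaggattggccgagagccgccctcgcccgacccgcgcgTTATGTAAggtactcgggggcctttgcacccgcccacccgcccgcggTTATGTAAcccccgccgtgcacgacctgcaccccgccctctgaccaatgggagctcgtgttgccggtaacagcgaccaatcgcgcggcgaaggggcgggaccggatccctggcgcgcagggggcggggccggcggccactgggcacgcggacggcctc
Arntl: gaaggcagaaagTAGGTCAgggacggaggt

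Library totals ran from 9591129 to 20024507 fragments, and levels below are CPM, library-scaled counts with TMM factors. Mertk was at 155 to 194 CPM in the Mertk KO libraries and at 234 to 259 CPM in Mertk WT. Adgrb1 was at 167 to 170 CPM in Bai1 Tg pos and at 144 CPM in the library labelled Bai1 Tg neg 4, but at or under 0.143 CPM in the other 3 Bai1 Tg neg libraries, so that library goes against its label. The fits of the members that use it are also given without it; group means, ratios and the other gene lists include it. The summed level of 10 RPE markers, led by Ttr and Rpe65, was 43587 to 51832 CPM over all libraries. The summed level of 13 rod photoreceptor markers, led by Gnat1 and Rom1, was 652 to 2365 CPM in Mertk WT, 693 to 1131 CPM in Mertk KO, 193 to 375 CPM in Bai1 Tg neg and 243 to 561 CPM in Bai1 Tg pos, and no marker of either list was at 0 in every library. In such bulk RNA, a change in the share of a cell type and a change of RNA per cell cannot be told apart. Of the tag numbers in the descriptions, the first is 12 throughout the Bai1 groups but 17 or 21 throughout the Mertk groups, so this number and the step from Mertk to Bai1 libraries cannot be told apart.

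All clock members were well detected. Per length of exon, the mean level over the 15 libraries fell in the order Per1 (51.7 CPM per kb), Nr1d1 (46.1), Dbp (44.4), Nr1d2 (24.7), Cry2 (15.4), Per3 (13.3), Per2 (10.7), Arntl (7.42), Cry1 (6.71) and Clock (5.41 CPM per kb). Among the genes tested over all libraries, these levels per kb ran from the 53rd percentile for Clock to the 93.5th percentile for Per1. Per kb, the output gene Dbp and the repressor genes Per1 and Nr1d1 therefore stood several fold above the activator genes Arntl and Clock at this hour. Not every neighbour in the order is resolved: Per1 was above Nr1d1 in 9 of 15 libraries and Nr1d1 above Dbp in 7 of 15. Dbp was above Nr1d2, Nr1d2 above Cry2, and Per2 above Arntl in all 15 libraries. This separates the leading genes, the middle genes and the 3 lowest genes on the scale per kb only. Arntl was above Cry1 in 11 libraries, and Cry2 was above Per3 in 13. The scale divides by the summed exon length, 13727 bases for Clock, alike in every library. In CPM without this division, Clock averaged 74.2, above Per2 (62.6), Arntl (21.5) and Cry1 (20.2).

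**Figure D1:**
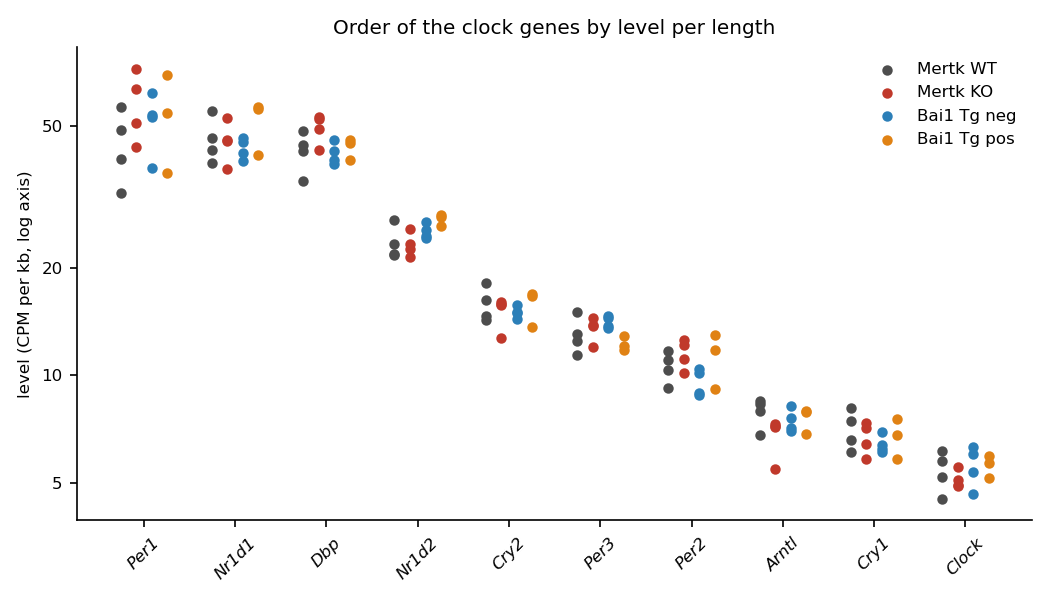
Level of each clock gene in CPM per kb of exon, on a log axis, with 1 point per library coloured by group. Per1, Nr1d1 and Dbp overlap at the top (means 51.7, 46.1 and 44.4 CPM per kb), Nr1d2 lies alone at 24.7, and Arntl, Cry1 and Clock are lowest.

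Counts behind these levels ran from 190 to 383 fragments per library for Cry1, the least counted member, to 2177 to 5895 for Per1. Counting error alone is then at most 7.25% of the level for Cry1 and 2.14% for Per1. The kit and counting did not use strand, so fragments in exons shared with an opposite gene cannot be assigned: this touches 16.7% of Dbp exon bases (with Sphk2), 8.55% of those of Nr1d1 (with Thra) and 4.67% of those of Cry2 (with D930015M05Rik).

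No clock member passed the threshold when Mertk KO was set against Mertk WT, where 0.223% of the 13447 genes tested did (edgeR, adjusted p under 0.05), nor did any with DESeq2. The median absolute log2 fold change of the members was 0.08, against 0.12 over all genes tested, and no member had an unadjusted p under 0.05, against 5.58% of all genes. Of the members, 4 were higher and 6 were lower in Mertk KO. Leaving Per1 aside, the 95% intervals of the members stayed between log2 -0.48 and 0.43, which is 0.715-fold to 1.35-fold, so larger shifts than these lie outside the intervals of those 9 genes. This is a bound on the size and does not show that the levels were equal.

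Among the activators, neither Arntl nor Clock passed. Arntl (chr7:113207465-113314122) was at 19.8, 24.1, 23.0 and 24.6 CPM in Mertk WT 1 to 4 and at 21.0, 21.3, 15.9 and 20.8 CPM in Mertk KO 1 to 4. The groups overlapped through Mertk WT 1, and Mertk KO 3 was the lowest of all 15 libraries. For Arntl the fitted log2 fold change was -0.21, its SE 0.125 and its adjusted p 0.905, with an interval from -0.48 to 0.06, and without Mertk KO 3 it was -0.12. Clock (chr5:76209868-76304792), the partner of Arntl, had mean levels of 74.0 ± 9.73 CPM for Mertk WT and 70.3 ± 4.05 CPM for Mertk KO (SD, n = 4 each), giving -0.08 on the log2 scale (SE 0.0999, adjusted p 0.923).

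Dbp (chr7:45705088-45710155), the D-box-binding output factor, had the smallest unadjusted p of the members. It was at 143, 103, 125 and 130.2 CPM in Mertk WT 1 to 4 and at 127, 145, 156 and 154 CPM in Mertk KO 1 to 4. The groups overlapped because Mertk KO 1 was below Mertk WT 1 and Mertk WT 4, while the other 3 Mertk KO libraries lay above every Mertk WT library. The log2 fold change was 0.21 (SE 0.103), with an unadjusted p of 0.0631 and an adjusted p of 0.893, so it did not pass. Without Mertk WT 2, the lowest library in Dbp, it was 0.13. The ratio of Dbp to Arntl per kb was 5.49 ± 1.20 in Mertk WT and 7.42 ± 1.62 in Mertk KO (SD, n = 4 each), with overlapping ranges of 4.23 to 7.11 and 5.95 to 9.69.

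Among the repressors, Per1 (chr11:69095217-69109960), the Per gene that light and cAMP induce fastest, had the largest fitted difference and the widest interval. It was at 274, 182, 318 and 227 CPM in Mertk WT 1 to 4 and at 286, 357, 408 and 247 CPM in Mertk KO 1 to 4. Mertk KO 1 and 4 lay within the range of Mertk WT and Mertk KO 2 and 3 above it, and Mertk WT 2 was the lowest of all libraries. Its log2 fold change was 0.37 (SE 0.206, adjusted p 0.905), a fold of 1.29 with an interval from 0.933 to 1.79. Leaving out 1 library at a time, it ran from 0.24 without Mertk KO 3 to 0.51 without Mertk WT 3, with 0.245 without Mertk WT 2. Per2 (chr1:91415982-91459324) was at 61.9 ± 6.31 and 67.3 ± 6.40 CPM (log2 0.12, adjusted p 0.913), and its fold change ran from 0.05 without Mertk WT 2 to 0.18 without Mertk KO 1. Per3 (chr4:151003652-151044665) was at 125 ± 14.7 and 130 ± 10.1 CPM (log2 0.05, adjusted p 0.945). The cryptochrome Cry1 (chr10:85131702-85185054) was at 21.2 ± 2.66 and 20.1 ± 2.08 CPM (log2 -0.08, adjusted p 0.937). Cry2 (chr2:92403646-92434043), on the chromosome of Mertk, was at 100.2 CPM (90.4 to 115) and 95.4 CPM (80.6 to 101) (log2 -0.07, adjusted p 0.930). The REV-ERB genes were nearest to equal means: Nr1d1 (chr11:98767932-98775333) was at 141 ± 20.7 and 139.6 ± 18.3 CPM, and Nr1d2 (chr14:18204054-18239127) at 118 ± 12.9 and 117 ± 8.77 CPM, both at -0.02 on the log2 scale (adjusted p 0.987 and 0.984).

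**Figure D2:**
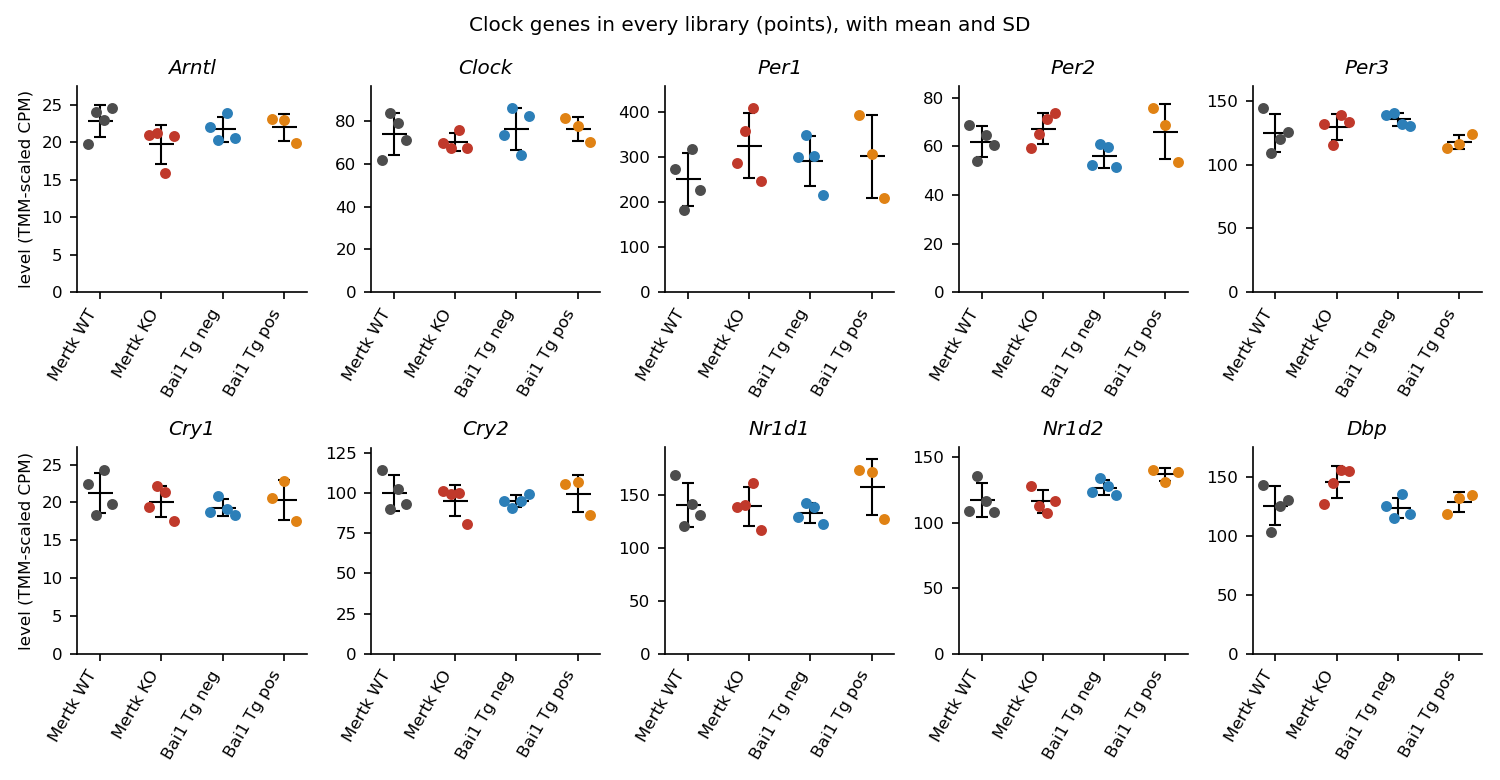
Level of each clock gene in TMM-scaled CPM in every library (points), with the group mean and SD (bars), each panel starting at 0. Within each of the 3 comparisons the groups overlap in every panel except that the 3 Bai1 Tg pos values of Per3 (113 to 124 CPM) lie below the 4 Bai1 Tg neg values (130.3 to 141 CPM). The share of all genes with ranges apart is not given.

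When Bai1 Tg pos was set against Bai1 Tg neg, again no member passed with edgeR or DESeq2, where 0.0144% of the 13855 genes tested did. Without the library labelled Bai1 Tg neg 4 no member passed either, against 0.0369% of 13562 genes. The median absolute log2 fold change of the members was 0.07, against 0.12 over all genes. Per3 and Nr1d1 had unadjusted p-values under 0.05, as did 5.18% of all genes tested; without that library Per3 alone did, against 4.35% of all genes.

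Per3, a Per gene with a weaker part in the core loop than Per1 and Per2, was at 139, 141, 132 and 130.3 CPM in Bai1 Tg neg 1 to 4 and at 113, 116 and 124 CPM in Bai1 Tg pos 1 to 3. It was the only member whose ranges did not overlap, Bai1 Tg pos being lower. The share of all genes whose ranges lie apart in this comparison is not given here, so this describes the values only. The log2 fold change was -0.20 (SE 0.0697), with an unadjusted p of 0.0107 and an adjusted p of 0.948, and -0.22 without the library labelled Bai1 Tg neg 4. Over the 15 libraries, the deviations of Per3 from its group means had r = -0.67 with those of the summed rod markers, given as a description, and the part of rod RNA in the Per3 values was not tested.

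Nr1d1, the REV-ERB alpha gene, was at 129, 143, 139 and 122 CPM in Bai1 Tg neg 1 to 4 and at 174, 172 and 127 CPM in Bai1 Tg pos 1 to 3. The first 2 Bai1 Tg pos libraries lay above every Bai1 Tg neg value and the third lay among them. The log2 fold change was 0.24 (SE 0.103, unadjusted p 0.0346, adjusted p 0.948). It was 0.20 without the library labelled Bai1 Tg neg 4. Without Bai1 Tg pos 3 it was 0.38 with an adjusted p of 0.0589, and 54 genes rather than 2 then passed over all genes. Per2 had the same order of libraries within each group, at 52.4, 61.1, 59.6 and 51.4 CPM in Bai1 Tg neg and at 75.8, 68.8 and 53.5 CPM in Bai1 Tg pos (log2 0.23, SE 0.114, adjusted p 0.948). Its log2 fold change was 0.12 without Bai1 Tg pos 1, 0.36 without Bai1 Tg pos 3 and 0.19 without the library labelled Bai1 Tg neg 4. Bai1 Tg pos 3 was again within the Bai1 Tg neg range.

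The other members had smaller fitted differences, but the interval of Per1 was too wide to show that it was close to its control. Per1 was at 299, 347, 302 and 215 CPM in Bai1 Tg neg 1 to 4 and at 391.9, 305 and 208 CPM in Bai1 Tg pos 1 to 3, so Bai1 Tg pos held both the highest and the lowest value. Its log2 fold change was 0.05 with an interval from -0.60 to 0.70, and -0.07 without the library labelled Bai1 Tg neg 4. Arntl, Clock, Cry1, Cry2 and Dbp had log2 fold changes between 0.00 and 0.07 in size, and Nr1d2 had 0.11, with adjusted p-values from 0.958 to 0.998, and omitting Bai1 Tg neg 4 these 6 genes lay between -0.01 and 0.09. For the 9 members other than Per1 the intervals ran from 0.783-fold to 1.39-fold. The ratio of Dbp to Arntl per kb was 5.60 ± 0.0272 in Bai1 Tg neg (SD, n = 4, from 5.58 to 5.64) and 5.81 ± 0.825 in Bai1 Tg pos (SD, n = 3).

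**Figure D3:**
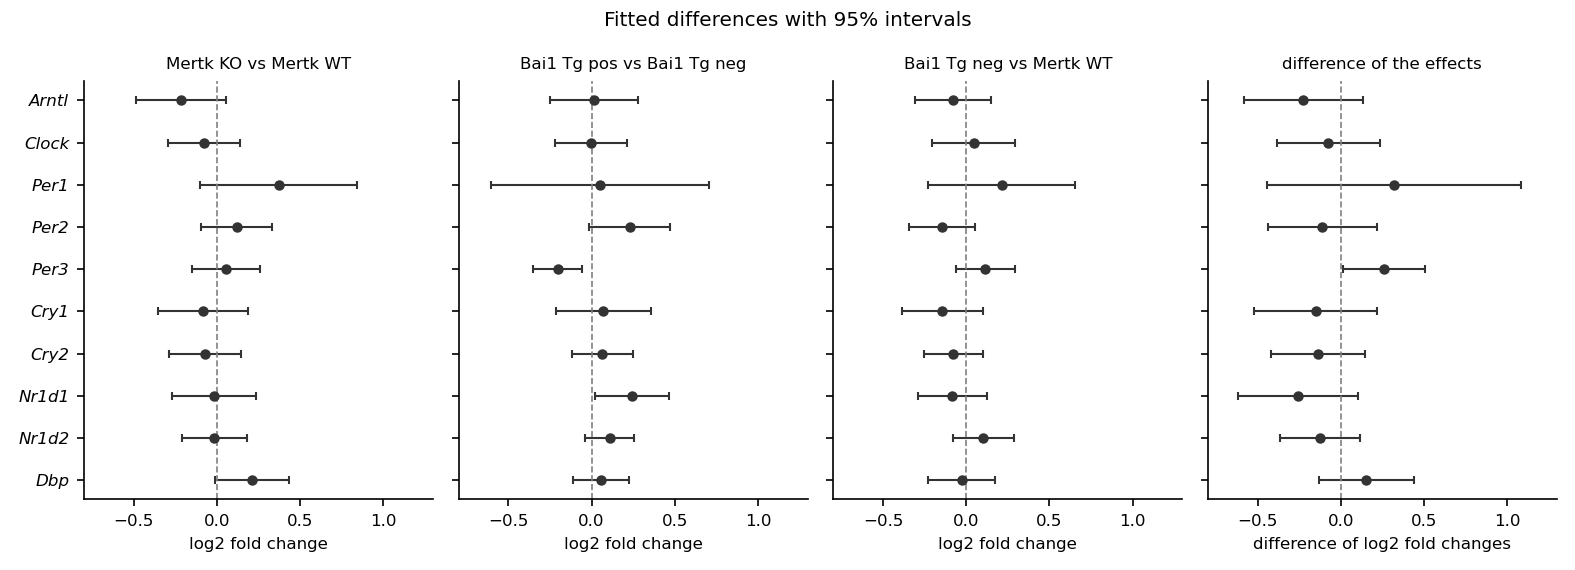
Fitted log2 fold change of each clock gene (points) with its 95% interval (bars) in 3 comparisons and, at the right, the Mertk effect minus the Bai1 effect. Per1 has the widest interval in each panel, and the intervals that leave out 0 are those of Per3 and Nr1d1 for Bai1 Tg pos against Bai1 Tg neg and of Per3 for the difference, none of which passed adjustment over all genes.

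The 2 control groups, both with wild-type Mertk, were also compared. This comparison shares its libraries with the 2 others, and the genotype, the tag number and the rod marker level cannot be told apart in it. No member passed with edgeR or DESeq2, where 0.431% of the 13459 genes tested passed with edgeR. None had an unadjusted p under 0.05, against 7.99% of all genes. Without the library labelled Bai1 Tg neg 4 none passed, against 0.204% of 13710 genes. On the log2 scale Per1 differed by 0.21 (SE 0.193), Per2 of -0.14 (SE 0.0924), Cry1 of -0.14 (SE 0.113) and Per3 of 0.12 (SE 0.0821), with adjusted p-values from 0.760 to 0.873. In the fit that omits the library labelled Bai1 Tg neg 4 these were 0.33, -0.10, -0.12 and 0.13. Per1 was 0.11 without Bai1 Tg neg 2, 0.09 without Mertk WT 2 and 0.35 without Mertk WT 3. Single Mertk WT libraries also moved Per2 (-0.09 without library 1), Cry1 (-0.07 without library 3) and Per3 (0.19 without library 1 and 0.06 without library 2). Arntl, Clock, Cry2, Nr1d1, Nr1d2 and Dbp lay between -0.08 and 0.10, and between -0.10 and 0.12 in the fit without Bai1 Tg neg 4; Nr1d2 was 0.19 without Mertk WT 2. In the order of the 4 group means, every one of the 30 neighbouring pairs of groups had overlapping ranges, over all members. Neighbours were set by the order of the means, which favours overlap, so this count does not show that the groups were alike. The share of such pairs over all genes is not given here. Between groups that were not neighbours and not compared by the design, Nr1d2 in Bai1 Tg pos (131 to 141 CPM) lay above Mertk KO (108 to 128 CPM). Between Bai1 Tg pos and Mertk KO too, the genotype, the tag number and the rod marker level cannot be told apart. The share of all genes with ranges apart between them is not given here.

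The effect of the Mertk genotype minus that of the Bai1 transgene was tested as 1 contrast over all 15 libraries. No member passed with either tool, against 0.103% of 14520 genes, or without the library labelled Bai1 Tg neg 4, against 0.118% of 14427 genes. Per3 alone had an unadjusted p under 0.05 (0.0418, adjusted p 0.643), against 7.53% of all genes, with a difference of 0.26 (SE 0.119) on the log2 scale, made of 0.05 for Mertk KO and -0.20 for Bai1 Tg pos. Nr1d1 differed by -0.26 (SE 0.171, adjusted p 0.776) and Per1 by 0.32 (SE 0.35, adjusted p 0.878). In the fit that omits the library labelled Bai1 Tg neg 4 the differences were 0.28 for Per3, -0.22 for Nr1d1 and 0.44 for Per1, and the other members lay between -0.20 and 0.17. Leaving out each library in turn, Nr1d1 ran from -0.39 (without Bai1 Tg pos 3) to -0.16 (without Mertk WT 1) and Per1 from 0.11 (without Bai1 Tg pos 3) to 0.55 (without Bai1 Tg pos 1).

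Per1 stood out by its spread between libraries of the same genotype. Its level ranged 2.24-fold over the 15 libraries, from 182 CPM in Mertk WT 2 to 408 CPM in Mertk KO 3, while the 9 other members ranged between 1.31-fold and 1.55-fold. The SD of log2 CPM within groups was 0.35 for Per1 and between 0.11 (Nr1d2) and 0.19 (Nr1d1) for the others. Among 10183 genes with a mean of at least 5 CPM the median was 0.17, and Per1 was at the 91.8th percentile. Among 1003 genes of similar level it was at the 95.7th percentile. Its counting error was at most 2.14%, well under its CV within groups, which was 22.2% to 30.5% in 3 of the groups and lowest in Bai1 Tg neg.

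Co-variation between members was measured on deviations of log2 CPM from the group mean over the 15 libraries, for the 45 pairs of members, with p-values from 100000 permutations within groups. Per1 with Nr1d1 had r = 0.85, rho = 0.83 and an unadjusted permutation p of 0.00137. Per1 with Cry1 had r = 0.85, rho = 0.84 and an unadjusted permutation p of 0.00222. The adjusted permutation p was 0.0499 for both pairs. That value sits on the threshold: the permutation error of the second pair alone spans adjusted values from 0.0433 to 0.0566. With rho the adjusted permutation p was 0.0927 for both pairs, and no pair passed with rho, within the 8 Mertk libraries, or without the library labelled Bai1 Tg neg 4. Leaving out Bai1 Tg pos 3 and Mertk WT 2, the libraries farthest out in Per1, r was 0.76 for each of the pairs. Within the 8 Mertk libraries r was 0.81 for Per1 with Nr1d1 and 0.96 for Per1 with Cry1 (adjusted permutation p 0.294 and 0.107).

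The next pairs did not pass: Cry2 with Nr1d1 and Cry1 with Nr1d1 had r = 0.84 and 0.80, and Dbp with Nr1d2 had r = -0.81 (adjusted permutation p 0.0852 for each). Without the 2 libraries farthest out in Nr1d2, the last was -0.52. Arntl with Nr1d1, its repressor, had r = -0.31 (adjusted permutation p 0.592). Without Mertk KO 3 and Mertk WT 1, the libraries farthest out in Arntl, this r was 0.29. The summed RPE markers had r = -0.71 with Cry1, -0.67 with Nr1d1 and -0.66 with Per1 in the same deviations, given as a description; the part of RPE content in the shared variation was not tested.

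**Figure D4:**
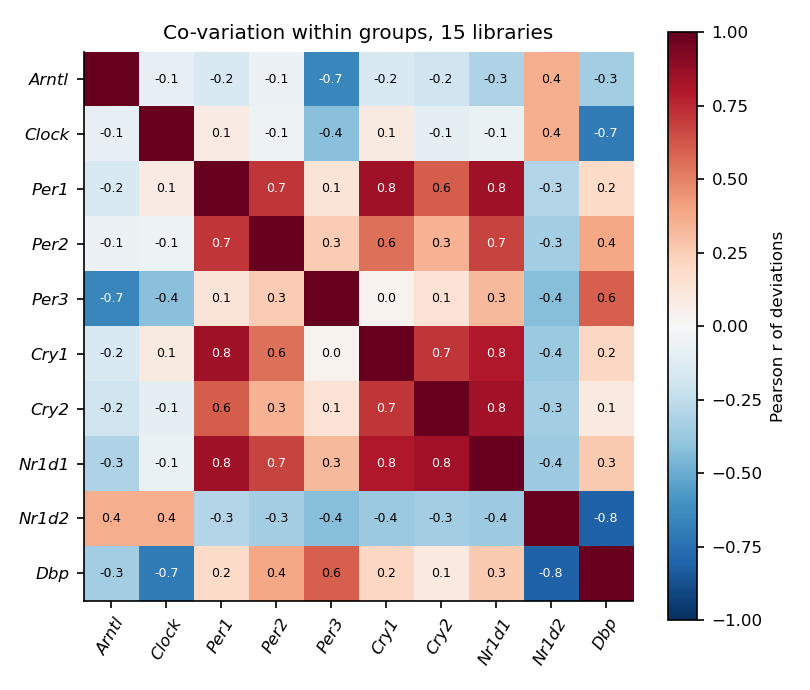
Pearson r between clock genes over 15 libraries, computed on deviations of log2 CPM from the group mean, from -1 (blue) to 1 (red). Per1, Cry1, Cry2 and Nr1d1 form a block of positive values, with Per1 and Nr1d1 at 0.85, while Dbp is negative with Nr1d2 (-0.81) and Clock (-0.70).

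The deviations of Per1 were also set beside a list of 11 light- and cAMP-responsive genes, as a description over the same 15 libraries. The r of Per1 was 0.89 with Egr1, 0.87 with Nr4a1, 0.84 with Ier2, 0.83 with Sik1, 0.79 with Fos, 0.75 with Fosb, 0.73 with Junb and 0.68 with Dusp1. These are immediate early genes, transcribed soon after a stimulus, and Sik1 and Dusp1 encode a kinase and a phosphatase that damp such responses. It was 0.30 with Crem, 0.24 with Crtc1 and 0.31 with Crtc2. Egr1 was at 1082, 816, 1281 and 775 CPM in Mertk WT 1 to 4, at 774, 1017, 1536 and 609 CPM in Mertk KO 1 to 4, at 1872, 1931, 1358 and 1371 CPM in Bai1 Tg neg 1 to 4, and at 2531, 1885 and 1173 CPM in Bai1 Tg pos 1 to 3. The library with the most Per1 was also the one with the most Egr1 in every group.

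**Figure D5:**
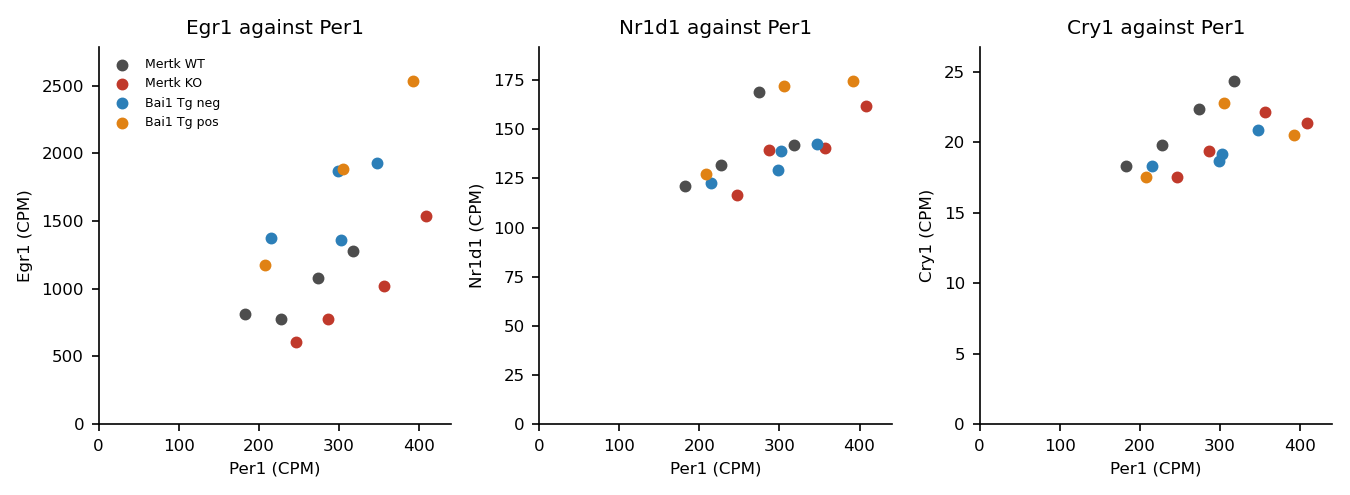
Egr1, Nr1d1 and Cry1 against Per1, in TMM-scaled CPM, with 1 point per library coloured by group. Within each group the library with the most Per1 has the most Egr1, and the Bai1 libraries lie higher in Egr1 (1173 to 2531 CPM) than most Mertk libraries (609 to 1536 CPM) at similar Per1.

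Of the 11 immediate genes none passed in any comparison with edgeR. In Bai1 Tg neg against Mertk WT, 5 had an unadjusted p under 0.05, against 7.99% of all genes, and the list's median log2 fold change was 0.38, while Per1 itself had 0.21; the median absolute log2 fold change over all genes was 0.11. Fos, the most abundant of the list per length, was 0.81 higher there on the log2 scale (SE 0.245, adjusted p 0.375). The members of smallest p there were Ier2 at 1.36 (SE 0.265, adjusted p 0.130) and Egr1 at 0.72 (SE 0.193, adjusted p 0.258). Of the list, only Crtc1 was lower there, at -0.04. Against Mertk WT in Mertk KO, the members of smallest p were Crtc1 at 0.13 (adjusted p 0.914) and Sik1 at 0.32 (SE 0.413, adjusted p 0.929).

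No other gene of the pathway lists passed either. Of 14 other transcription factors of the clock 13 were tested, and 1 or 2 had an unadjusted p under 0.05 in each of the 4 contrasts, against 5.18% to 7.99% of all genes. Rora, the ROR that opposes the REV-ERBs at RORE elements, stood at -0.20 on the log2 scale in Mertk KO (SE 0.0803, unadjusted p 0.0289, adjusted p 0.818), and Bhlhe41, an E-box repressor, 0.16 (adjusted p 0.905). Its relative Bhlhe40, the most abundant of the list per length, ranged from 263 to 709 CPM and had -0.10 (SE 0.281, adjusted p 0.973). Of 15 clock kinases, phosphatases and ubiquitin ligases all were tested and none passed, with 4 unadjusted p-values under 0.05, all in Bai1 Tg neg against Mertk WT, where 7.99% of all genes had one: Ppp1cb, a catalytic subunit of protein phosphatase 1, had -0.19 in Mertk KO, Btrc, a ubiquitin ligase subunit that targets PER proteins, had -0.12, and Csnk1d, the casein kinase that phosphorylates PER, had 0.01 (adjusted p 0.905, 0.905 and 0.994).

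Of 16 rhythmic output genes 15 were matched and tested, and none passed. In Mertk KO, the cold-inducible RNA-binding gene Cirbp had 0.21 (SE 0.0929, unadjusted p 0.0439, adjusted p 0.890), the cell-cycle inhibitor Cdkn1a 0.43 (SE 0.279, adjusted p 0.905) and the heat-shock cognate Hspa8 -0.10 (adjusted p 0.914). Of 14 light and hormone receptors 7 passed the low-count filter in the Mertk fit and 6 in the Bai1 fit, and none passed the test. The retinal G-protein-coupled opsin gene Rgr was at 11058 to 14569 CPM in all libraries, with a log2 fold change of -0.10 in Mertk KO (adjusted p 0.905), and the adenosine receptor Adora2b had 0.17 (adjusted p 0.905). The melatonin receptor gene Mtnr1b and the dopamine receptor gene Drd5 had 0 counts in all libraries, which allows up to 0.15 to 0.313 CPM per library.

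The genes whose deviations were most like those of Dbp, among 10182 genes with a mean of at least 5 CPM, were Lhx2 (r = 0.95), Actr1b (0.94), Cbr1 (0.94), Ftl1 (0.94) and Fgfr1 (0.93), and the most opposite were Fam91a1 (-0.94), Gmfb (-0.94) and Cul4b (-0.93). For Arntl they were Osbpl3 (0.94), Nif3l1 (0.91), Mpp1 (0.88), Efemp1 (0.87) and Ndufb5 (0.86), and the most opposite were Amer2 (-0.86), Kif1a (-0.85) and Fzd5 (-0.85). For Per1, a search added after its values were seen, they were Irf2bp2 (0.92), Zfp36l1 (0.90), Egr1 (0.89), Mafk (0.89) and Tchh (0.88), and the most opposite were Ncoa4 (-0.90), Hax1 (-0.88) and Jkamp (-0.87). These values of r are the extremes over many genes in 15 libraries and share depth and dissection. No clock member was among the 5 nearest genes of Dbp, Arntl or Per1.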

How the data were processed

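Raw fragment counts per gene came from the authors in 1 deposited table. Per the labels' protocols, libraries were made from poly-A RNA with the TruSeq kit. Alignment used STAR and GRCm38, per the submitters' processing notes, and per the file headers featureCounts 1.5.0 counted exons by gene, requiring both ends mapped and no strand. The sources used here give neither the version of STAR nor the annotation. Gene length, deposited in the same table, gave CPM per kb. Symbols were matched for 45143 genes, holding 99.91% of counts.

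Members, lists and tests were chosen with earlier results of these data known. Named genes were the 10 members; of each other list, members past the threshold (none), otherwise the 2 of smallest p for Mertk KO and the most abundant 1 per length; the 5 most and 3 least similar genes to Dbp and Arntl; overlapping genes; and Mertk and Adgrb1. The other immediate genes, Mtnr1b and Drd5 were named after their values were seen.

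edgeR 4.0.16 in R 4.3.3 (TMM, filterByExpr, robust quasi-likelihood F test, two-sided) was fitted to the 2 groups compared, and to all 15 libraries for the difference, with Benjamini-Hochberg adjustment over all genes tested and a threshold of 0.05. Scripts were tested on simulated data. 1 gene of the rod marker list is not reported here and is left out of its sum. CPM used TMM factors over all libraries; log2 CPM had a prior count of 2. No 2 libraries of a group agreed within sampling noise (lowest chi-square per degree of freedom 5.28). The labels do not tie replicates to separate animals: p-values cover the spread over the libraries alone, and that spread may be technical. Totals were 9591129 to 20024507; intervals of counting and the floor of 3 counts cover counting error only. Alternatives were DESeq2 1.42.0, other size factors, no filter, all libraries in 1 fit, tag numbers, a replicate block and leaving out each library.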

Additional observations from a re-analysis of the deposited data

Results flagged for a closer look

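In Mertk KO, Arntl was at 15.86 CPM in library 3, against 20.84 to 21.26 CPM in the other 3 libraries, a value far from the rest of its group by Dixon's criterion. Without that library the log2 fold change of Arntl between Mertk KO and Mertk WT was -0.12 rather than -0.21, neither of which passed the threshold. Also in Mertk KO, Cry2 was at 80.6 CPM in library 4, against 99.33 to 101.5 CPM in the others, and without it the log2 fold change of Cry2 was 0.00 rather than -0.07. These were 2 of the 30 groups of 4 libraries examined over the 10 members, and chance marks about 5% of groups.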

How the results depend on the processing

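No member passed the threshold in any of the 590 member values under the alternatives, so calls did not change, and 27 values changed sign, all from fitted changes of small size, with intervals that hold 0; the cause was not tested. Mertk KO against Mertk WT, leaving out 1 library at a time: Per3 from -0.0045 to 0.134, Cry2 from -0.122 to 0.0019, Nr1d1 from -0.093 to 0.0847 and Nr1d2 from -0.0643 to 0.0617. Bai1 Tg pos against Bai1 Tg neg: Per1 from -0.181 to 0.260, Cry1 from -0.0277 to 0.170, Arntl from -0.0219 to 0.0867 and Clock from -0.0798 to 0.0585. Clock there was 0.00093 with DESeq2 and 0.00087 with its size factors. Bai1 Tg neg against Mertk WT: Clock from -0.0365 to 0.121, Nr1d1 from -0.148 to 0.0125 and Dbp from -0.107 to 0.0395. Difference of effects: Clock from -0.154 to 0.00049.

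Counts of all genes past the threshold moved more. They were, in the order Mertk, Bai1, Bai1 Tg neg against Mertk WT and difference, 30, 2, 58 and 15 as reported, 74, 21, 221 and 81 with DESeq2, and 69, 85, 138 and 37 without the low-count filter. Leaving out 1 library gave 16 to 31, 0 to 54, 13 to 89 and 12 to 31. One fit of all libraries gave 0 for Bai1. The correlation between members gave 2 pairs as reported, and 0 with rho, 0 in the 8 Mertk libraries and 0 without the library labelled Bai1 Tg neg 4.

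With the replicate number as a replicate block, counts were 4 for Bai1 and 106 for Bai1 Tg neg against Mertk WT, and Bai1 values were -0.113 for Per1, -0.0077 for Arntl and 0.045 for Clock. Same-numbered libraries did not all deviate together (r from -0.24 to 0.39 in the Mertk groups, from -0.025 to -0.0055 in the Bai1 groups), so the numbers were not taken as pairs. Mertk KO 4 and Mertk WT 4, with r = 0.39, also share the tag number 21.

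The least counted member, Cry1, had 190 to 383 fragments per library, so its counting error of up to 7.25% is of the order of its CV within groups, which was 5.85% in Bai1 Tg neg and 12.5% in Mertk WT.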

Other observations

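Melanopsin (Opn4), the photopigment of intrinsically photosensitive ganglion cells, was at 14.5 to 26.3 CPM in all 15 libraries, and peropsin (Rrh), an opsin of the RPE, was at 434 to 548 CPM. The cold-inducible RNA-binding gene Rbm3 reached 90.8 to 103 CPM in Bai1 Tg neg (4 libraries), above the 62.3 to 84.5 CPM of the Mertk WT libraries and the 77.0 to 84.5 CPM of Bai1 Tg pos. Neither difference passed over all genes (edgeR log2 fold change 0.40, adjusted p 0.123, and -0.30, adjusted p 0.719), and Rbm3 was named after its values were seen. The library labelled Bai1 Tg neg 4, which goes against its label, is included in these values, with Rbm3 at 98.8 CPM. The share of all genes with ranges apart in this way is not given here.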
